A study of Mus musculus with 26 samples.

Results

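A subset of H3K4me3 peaks is described here, those lying within 10 kb of an annotated mouse microRNA precursor and more than 1 kb from both ends of every protein-coding gene. By this rule 445 of the 48054 peaks of Early-B cells (0.926%) and 347 of the 31414 peaks of Ebf1-/- progenitors (1.10%) were chosen. The rule used only positions, on the mm10 build, and 1228 precursors were annotated. The coding-end criterion removed 421 of 866 Early-B peaks near a precursor (48.6%) and 408 of 755 progenitor peaks (54.0%).

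H3K4me3 is a histone mark placed at active and poised promoters. MicroRNAs are cut from hairpins within longer primary transcripts, and the promoter of such a transcript can lie far from the hairpin. Many hairpins sit inside introns of coding genes and are made from the host gene's promoter, while others have a non-coding host transcript with a promoter of its own. The peaks described here leave out the outer promoters of coding hosts, and so hold candidates for the second kind together with marks inside gene bodies.

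The progenitors lack the transcription factor EBF1, without which B cell development stops. Early-B cells were the same Ebf1-/- progenitors, given EBF1 from the MigR1-EBF1.ER construct and kept for 2 days on OP9 stromal cells with 4-O-hydroxytamoxifen and the cytokines IL-7, SCF and FLT3-L. Cells of both groups thus lacked their own Ebf1, and no label says how the progenitors used for chromatin were cultured. Each group had 2 H3K4me3 samples (antibody Abcam ab8580) and 2 input DNA samples but 1 peak list, so no difference between the groups could be tested against replicates. Of 5 B lineage genes, chosen after seeing the data and so no check of the labels, the Early-B list had a peak within 1 kb of all 5, with highest −log10 p values of 85.6 at Pax5, 88.9 at Cd79a, 39.7 at Cd79b, 182 at Blnk and 72.9 at Igll1. The progenitor list had peaks at Pax5 (10.0), Cd79a (129) and Cd79b (4.24) and none at Blnk or Igll1. The share of all coding genes with such a peak was not computed. The remaining samples (microRNA sequencing, Ago2 immunoprecipitation, Early-T) were not used here.

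The microRNAs that carry the results below are shown by their mature strand, written 5′ to 3′ from RefSeq (GRCm38.p6) with the seed, bases 2 to 8, in capitals. The seed is the stretch that pairs with target messages, so hairpins with the same seed share many predicted targets. The first set had peaks in both lists and contains the 17-92 cluster with a paralog from the X chromosome, let-7 members, the 23a cluster and miR-155.
miR-17-5p (chr14:115043684-115043706, plus strand): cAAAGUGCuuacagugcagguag
miR-20a-5p (chr14:115044183-115044205, plus strand): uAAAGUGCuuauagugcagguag
miR-106a-5p (chrX:52742541-52742563, minus strand): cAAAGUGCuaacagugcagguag
miR-18a-5p (chr14:115043867-115043889, plus strand): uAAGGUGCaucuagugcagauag
miR-19b-3p (chr14:115044358-115044380, plus strand): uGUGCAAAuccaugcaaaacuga
miR-92a-3p (chr14:115044476-115044496, plus strand): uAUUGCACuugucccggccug
let-7i-5p (chr10:122985698-122985719, minus strand): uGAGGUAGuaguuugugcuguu
let-7a-5p (chr13:48538239-48538260, minus strand): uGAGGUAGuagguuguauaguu
let-7d-5p (chr13:48536078-48536099, minus strand): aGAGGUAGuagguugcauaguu
miR-23a-3p (chr8:84208563-84208583, plus strand): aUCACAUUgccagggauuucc
miR-27a-3p (chr8:84208727-84208747, plus strand): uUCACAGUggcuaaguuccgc
miR-24-3p (chr8:84208875-84208896, plus strand): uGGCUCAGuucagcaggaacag
miR-155-5p (chr16:84714143-84714165, plus strand): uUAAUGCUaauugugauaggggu
miR-17, miR-20a and miR-106a had the seed AAAGUGC in common, and the let-7 strands had GAGGUAG. miR-18a differs from the first of these seeds and formed a group of its own, as did miR-92a, miR-23a, miR-27a, miR-24 and miR-155. The strand of let-7a is also made from Mirlet7a-2, which had an Early-B peak alone.

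The second set is shown because its hairpins had peaks in 1 list alone. miR-100, miR-99a, miR-125b, miR-199a and miR-214 had peaks in the Early-B list, and miR-29a, miR-29b, miR-221 and miR-222 in the progenitor list.
miR-100-5p (chr9:41531437-41531458, plus strand): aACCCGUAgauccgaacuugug
miR-99a-5p (chr16:77598940-77598961, plus strand): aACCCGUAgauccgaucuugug
miR-125b-5p (chr9:41581940-41581961, plus strand): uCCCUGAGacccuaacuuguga
miR-199a-5p (chr1:162217844-162217866, plus strand): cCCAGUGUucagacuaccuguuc
miR-199a-3p (chr1:162217883-162217904, plus strand): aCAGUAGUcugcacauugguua
miR-214-3p (chr1:162223438-162223459, plus strand): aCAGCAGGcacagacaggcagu
miR-29a-3p (chr6:31062673-31062694, minus strand): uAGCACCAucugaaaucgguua
miR-29b-3p (chr6:31063025-31063047, minus strand): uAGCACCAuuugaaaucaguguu
miR-221-3p (chrX:19146307-19146329, minus strand): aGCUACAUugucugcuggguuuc
miR-222-3p (chrX:19146901-19146923, minus strand): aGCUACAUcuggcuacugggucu
Here miR-100 and miR-99a shared ACCCGUA, miR-29a and miR-29b shared AGCACCA, and miR-221 and miR-222 shared GCUACAU. Since this set was chosen by class, and the hairpins of miR-29a and miR-29b share a single peak as do those of miR-221 and miR-222, the classes say nothing about seeds.

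A peak was called shared where at least 1 bp overlapped a peak of the other list, and private otherwise. Of the Early-B members, 251 were shared and 194 (43.6%, exact 95% binomial interval 38.9 to 48.3) were found in Early-B only. Over the whole Early-B list 50.4% of peaks were private, and among its other peaks away from coding ends 63.3% were. Of the progenitor members, 257 were shared and 90 (25.9%, interval 21.4 to 30.9) were progenitor only, against 22.8% of the whole list and 32.0% of its other peaks away from coding ends. In both lists the private share of members was thus lower than that of the other peaks away from coding ends. Members also held more strong peaks, with a −log10 p of 50 or more for 10.8% of Early-B members and 4.18% of those other peaks. In the progenitor list these shares were 17.3% and 7.72%. Private shares of members and of those other peaks were not compared at equal strength. The intervals cover counting error over peaks and no difference between animals or cultures. Private means only that the other list holds no overlapping peak at the deposited threshold.

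Which list had the larger private share of members changed at equal list lengths. With the Early-B list cut to the length of the progenitor list by the authors' p, 31.7% of 287 Early-B members and 41.2% of 347 progenitor members were private, beside 36.2% and 34.3% of all peaks of these lists. Chained by overlap, the members formed 547 loci, of which 263 were shared, 194 Early-B only and 90 progenitor only. Some 62 loci lay near more than 1 precursor. Of the 1228 precursors, 261 had members in both lists, 133 had Early-B members alone and 52 progenitor members alone. Precursors are classed by which list has a member near them, whether or not these members overlap. In 5 of the 133 and 8 of the 52, a member overlapped a coding-end peak of the other list and was itself shared. A further 224 had peaks only at coding ends, and 558 had none within 10 kb.

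Private members were weak and narrow beside the shared ones, as private peaks were over the whole lists. The median Early-B member was 1646 bp wide with a fold enrichment of 3.34 when shared, and 882.5 bp wide with a fold of 2.10 when private. In the progenitor list the medians were 1388 bp and 3.51 for shared members and 544.5 bp and 1.77 for private ones. On the authors' scale of −log10 p, which rises with the strength of a peak within its list, the Early-B medians were 8.77 and 2.96 and the progenitor medians 9.01 and 1.81. An authors' q above 0.05 was listed for 19.5% of shared and 49.5% of private Early-B members, and for 25.3% and 80.0% of progenitor members. In the full Early-B list 51.1% of private peaks had such a q, with a median fold of 2.06, and in the full progenitor list 78.2%, with a median fold of 1.79, so these values are not particular to the members. All these folds, p and q values are the authors' own, and they rank peaks within a list without measuring change between lists.

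**Figure D1:**
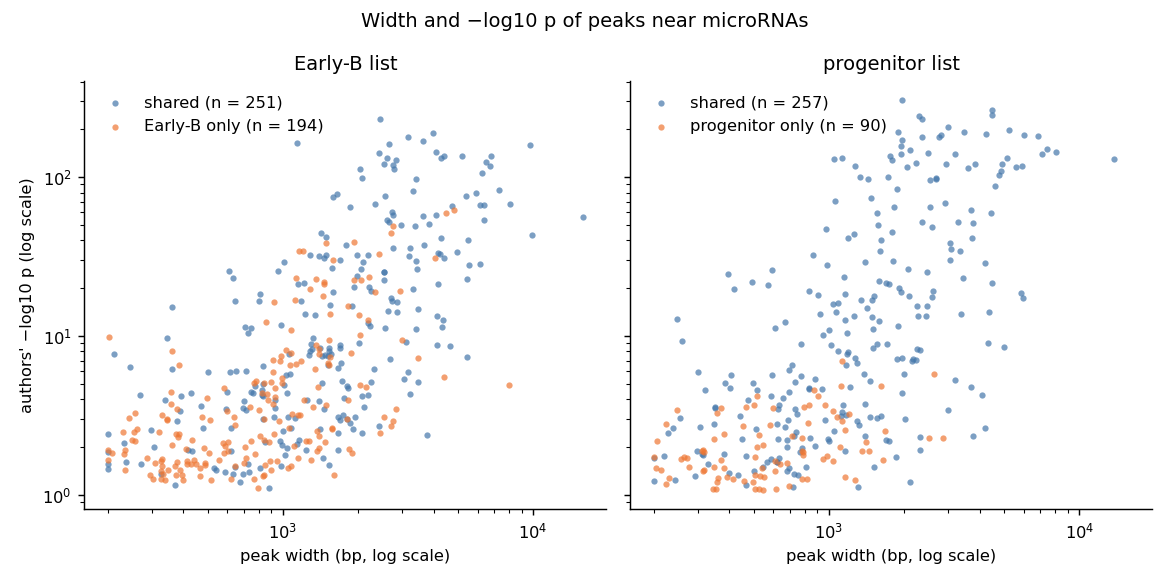
Width in bp and authors' −log10 p of each member, both on log scales, for the Early-B list (left) and the progenitor list (right), with shared peaks in blue and private peaks in orange. No progenitor-only peak passes 6.90, while Early-B-only peaks reach 62.3.

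At a −log10 p of 50 or more, 46 of 48 Early-B members (95.8%) and all 60 progenitor members were shared, as were 98.1% of all Early-B peaks and 9925 of 9926 progenitor peaks of that strength. From 10 to 50, 73 of 102 Early-B members (71.6%) and 67 of 67 progenitor members were shared, against 61.4% and 97.6% of all such peaks. At 10 or more, 31 of 150 Early-B members (20.7%) were private, against 21.1% of all Early-B peaks. None of the 90 progenitor-only members reached 10, against 1.41% of all progenitor-only peaks. When both lists were first limited to values of 10 or more, however, 38.7% of 150 Early-B and 25.2% of 127 progenitor members were private, since a strong peak can then face a weak one that was removed. The shares over all peaks with both lists so limited were not computed.

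The label of these peaks as away from coding ends holds for the outer ends of genes only. Inside the span of a coding gene lay 55.4% of shared and 56.7% of private Early-B members, and 54.9% of shared and 70.0% of private progenitor members. Among the other Early-B peaks away from coding ends these shares were 49.2% and 36.9%, and among the other progenitor peaks 48.6% and 59.9%. A RefSeq start of a coding gene was listed within 1 kb of 34 Early-B members (7.64%) and 27 progenitor members (7.78%), nearly all of them shared (30 and 26). Among the other peaks away from coding ends the shares were 3.04% and 5.09%, and most of those peaks were shared too (896 of 1085 and 936 of 1014). A start of a long non-coding RNA lay within 1 kb of 28 shared (11.2%) and 8 private (4.12%) Early-B members, and of 29 shared (11.3%) and 1 private (1.11%) progenitor members. Of the other Early-B peaks away from coding ends, 6.453% of shared and 2.153% of private ones had such a start. For the other progenitor peaks these shares were 6.060% and 2.498%. The higher share among shared peaks was thus not particular to the members. Peaks at such listed starts became more frequent with strength. In the Early-B list 6.78% of members with a −log10 p under 10 had a listed start of either kind, 20.6% of those from 10 to 50 and 56.3% of those above. The progenitor list gave 4.09%, 20.9% and 53.3%. Shares by strength were not computed for the other peaks.

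Most members did not cover the hairpin itself. The precursor lay under 48 Early-B peaks (33 shared, 15 private) and 41 progenitor peaks (34 shared, 7 private). The median gap between peak and precursor was 4872 bp in the Early-B list and 4769 bp in the progenitor list. Where the strand of the precursor was listed, the peak's centre lay upstream of its 5′ end for 133 of 234 shared (56.8%) and 86 of 181 private (47.5%) Early-B members. In the progenitor list it did so for 130 of 238 shared (54.6%) and 44 of 82 private (53.7%) members. Members therefore lay on both sides of their precursors in each class.

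**Figure D2:**
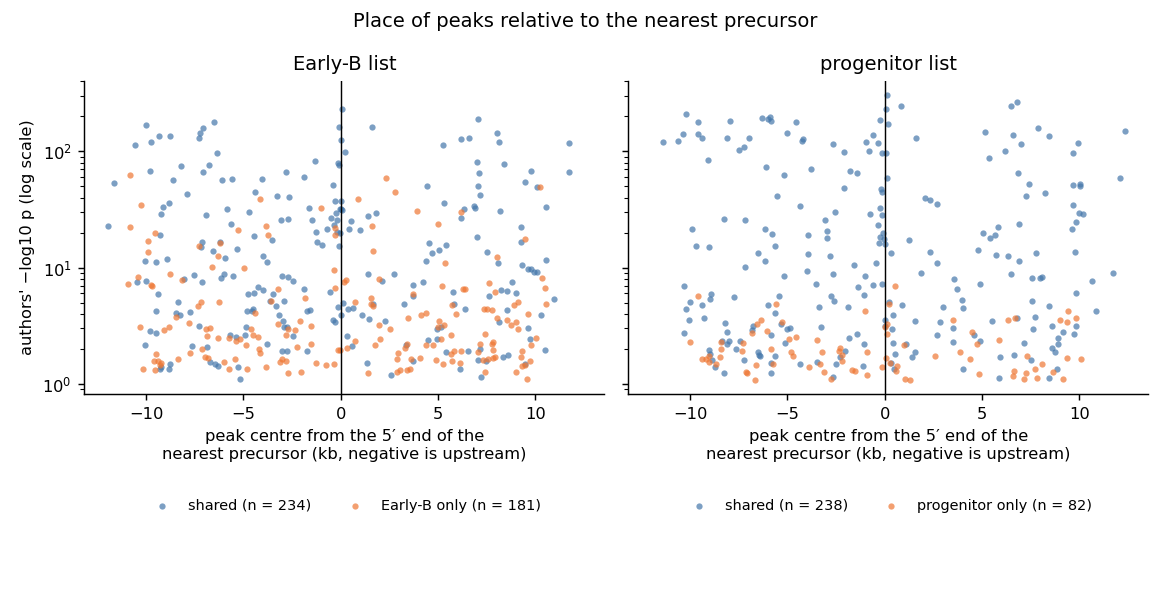
Authors' −log10 p (log scale) against the distance in kb from the 5′ end of the nearest precursor to the peak's centre, counted along the precursor's strand, for members whose precursor strand is listed. Peaks of all strengths spread over both sides of the line at 0, and 27 of 46 Early-B peaks that reach 50 lie upstream.

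Among the shared loci, the strongest lay over Mir760. Its peak covered chr3:122292426-122294866 in Early-B (2441 bp, −log10 p 233) and was 1955 bp wide in progenitors (304). It lay in no coding gene's span, and no start of a long non-coding gene was listed within 1 kb. Whether it lay in the span of a long non-coding gene was not examined. Mir6516, whose hairpin lies at the small nucleolar RNA host gene Snhg20, followed a similar pattern with values of 162 and 234 and widths of 2656 and 2348 bp. Some 4 of the 10 leading shared loci instead sat at a listed start inside a coding gene: Mir7655 in Mllt10 (191 and 266), Mir7240 in Mast3 (179 and 193), Mir7033 in Pom121 (169 and 209) and Mir1966 in Ripor1 (137 and 182). For these loci the peak may be read as a start of the coding gene as well as a mark near the microRNA, and the files do not tell these apart. Mir1893 in Epc1 (136 and 187) and Mir101a beside the non-coding gene E130102H24Rik (135 and 140) completed the group with the 23a and let-7a-1 clusters below.

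The 17-92 cluster, which sustains the survival of B cell progenitors, had 1 broad peak over all 6 hairpins in both lists. It covered chr14:115038740-115046018 in Early-B (7279 bp, −log10 p 82.6, fold 12.1) and chr14:115039514-115046602 in progenitors (7089 bp, 140, fold 16.9). The peak began 4931 bp upstream of Mir17 in Early-B and 4157 bp upstream in progenitors, and ended past the last hairpin of the cluster in both. A small second peak lay 9688 bp upstream in Early-B (708 bp, 11.4) and 9832 bp upstream in progenitors (386 bp, 5.03). The Mir106a cluster on the X chromosome, a paralog, had an Early-B peak of 5469 bp (40.1) that reached over the hairpin of Mir106a and a progenitor peak of 2541 bp (65.3) that ended 163 bp short of it. In all, 12 of the 15 precursors of the cluster and its paralogs had members in both lists, and the other 3 had peaks only at coding ends. None of the 12 was in 1 list alone. Over all annotated precursors with a member, 29.8% were Early-B only and 11.7% progenitor only. The 12 lie in the Mir17 and Mir106a clusters and share the main peak of each, so they do not count separately.

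The 23a cluster, whose hairpins Mir23a, Mir27a and Mir24-2 are known to favour myeloid over B cell fate, had some of the widest members. In Early-B a single peak of 9735 bp (chr8:84196573-84206307, −log10 p 161) lay upstream of the hairpins. The progenitor list split this stretch into peaks of 2227 bp (123) and 5249 bp (198). Over the hairpins themselves the progenitor list had a 2166-bp member (7.16), while the Early-B peak there (3359 bp, 9.43) came within 1 kb of a coding gene's end and was no member. The splitting went the other way at the let-7a-1, let-7f-1 and let-7d cluster, whose products restrain proliferation. There progenitors had 1 peak of 8075 bp (145) and Early-B cells a 4096-bp peak (143) with a weak one of 1664 bp (1.92). In 23 shared loci a list had 2 or more peaks, so the number of peaks is a poor measure of covered width.

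**Figure D3:**
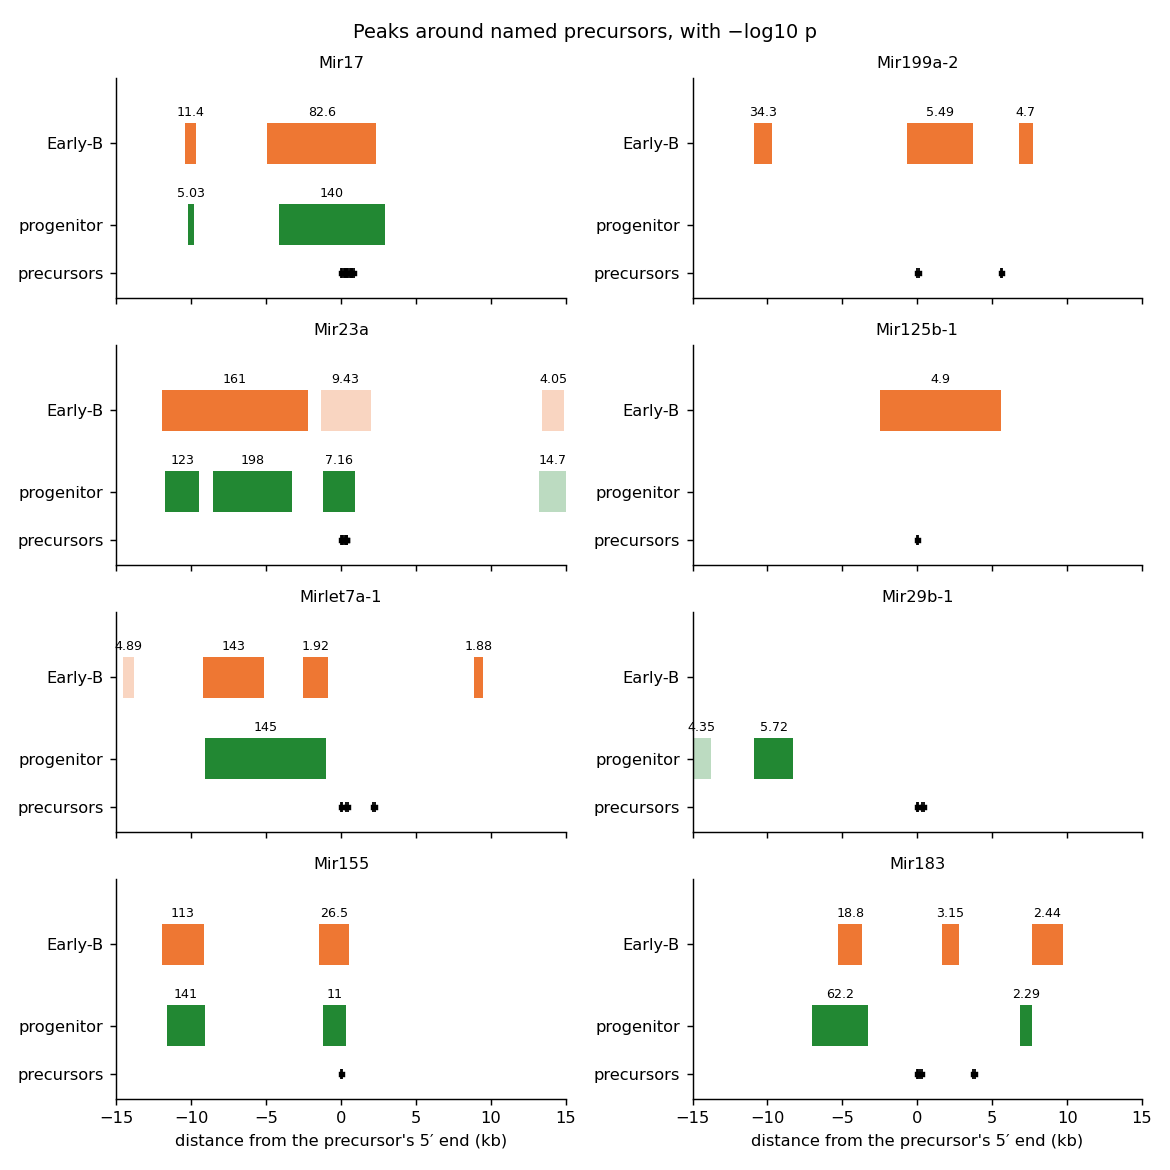
Peaks (Early-B in orange, progenitor in green, pale where not a member) and precursors (black) from 15 kb upstream to 15 kb downstream of the 5′ end of 8 named precursors, with the authors' −log10 p above each peak. Peaks of both lists coincide at Mir17, Mir23a, Mirlet7a-1 and Mir155, whereas Mir199a-2 and Mir125b-1 show Early-B peaks alone and Mir29b-1 progenitor peaks alone.

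Mir155, which is needed for germinal centre responses and made from a non-coding host transcript, had a pair of shared peaks. The far one lay 9170 bp upstream in Early-B (2782 bp, −log10 p 113) and 9113 bp upstream in progenitors (2491 bp, 141). The near one covered the hairpin, with 2043 bp (26.5) in Early-B and 1495 bp (11.0) in progenitors. Mirlet7i had the highest progenitor value among the listed microRNAs (4495 bp, 248), beside an Early-B peak of 6497 bp (125). Mir22, a regulator of haematopoietic self-renewal, had peaks of 6119 bp (66.5) and 3608 bp (115), and the Early-B one alone reached its hairpin. Mir181c, a relative of the thymic miR-181a, had a pair of shared upstream peaks with values of 30.3 and 74.7 in Early-B and 180 and 131 in progenitors. Mir223, a microRNA of myeloid cells, had a weak 1898-bp Early-B peak (2.58) that stopped 1514 bp short of the hairpin and a 4996-bp progenitor peak (8.49) that covered it.

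Of 43 lymphoid and myeloid microRNAs on a list, 41 were found by name among the annotated precursors. Mir146a was sought under that name, so the precursor named Mir146 (53.8 in Early-B and 6.97 in progenitors) was not counted. Of the 41, 15 had members in both lists, 3 were Early-B only and 4 progenitor only. Another 7 had peaks at coding ends alone and 12 had none within 10 kb. The 3 Early-B-only precursors were Mir26a-1 (10.2), Mir148a, a regulator of B cell tolerance (9.45), and Mir342 (5.04). The 4 progenitor-only ones had low values, Mir34c 3.15, Mir744 2.70, Mir26a-2 2.26 and Mir28a 1.20, and the peak near Mir34c overlapped an Early-B peak at a coding end. Over all annotated precursors with a member, 29.8% were Early-B only and 11.7% progenitor only, against 13.6% and 18.2% of the 22 on this list. With so few precursors, and with 1 and 0 precursors of these classes left at a −log10 p of 10 or more, these shares describe this pair of lists alone.

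Stem and progenitor microRNAs had the most private precursors of the haematopoietic lists. Of 26 precursors 9 were Early-B only, 4 were progenitor only and 7 had members in both. Of the 20 with a member, 45.0% were thus Early-B only and 20.0% progenitor only. Over all annotated precursors with a member these shares were 29.8% and 11.7%. Precursors that share a peak, such as Mir100 with Mirlet7a-2 and Mir99a with Mirlet7c-1, do not count separately in these shares. With both lists limited to a −log10 p of 10 or more, the counts were 3 and 0. The 9 included both clusters in which a miR-99 or miR-100 hairpin, a let-7 hairpin and a miR-125b hairpin lie together, a set known from haematopoietic stem cells. At Mir100 and Mirlet7a-2 the Early-B peak (1456 bp, chr9:41525448-41526903) had a −log10 p of 21.1. At Mir125b-1 the peak covered the hairpin over 8011 bp, the widest Early-B-only member, with a value of 4.90. The paralogous Mir99a and Mirlet7c-1 had a peak of 1389 bp (1.98), and Mir125b-2 one of 2843 bp (3.46). Near the third paralogous cluster, with Mir99b, Mirlet7e and Mir125a, a strong shared peak (119 and 158) lay downstream of the hairpins, within the coding gene Spaca6. It began 6772 bp past the start of Mir125a in Early-B and 6913 bp past it in progenitors. Mir196a-2 (19.7), Mir196a-1 (1.84) and Mir10b (8.26), which lie in Hox gene clusters, were the other Early-B-only precursors.

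The 4 progenitor-only stem microRNAs shared 2 peaks. Mir29a and Mir29b-1, known to promote self-renewal of myeloid progenitors, had a 2637-bp peak 8265 bp upstream of Mir29b-1 (chr6:31071358-31073994, −log10 p 5.72). Mir221 and Mir222, which target the SCF receptor Kit, had a 2866-bp peak 8588 bp upstream of Mir222 (2.28), the widest progenitor-only member. At q of at most 0.05 in both lists 2 of these 4 precursors were left, and with values of 10 or more none were. Mir126a, a microRNA of stem cells and endothelium, was shared, with 1423 bp (44.7) in Early-B and 1793 bp (128) in progenitors.

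MicroRNAs of stromal and mesenchymal cells were listed because Early-B cells were grown on OP9 stroma. Of 25 listed names, 24 were found among the annotated precursors. Mir497a was sought under that name, so Mir497 (3.22, Early-B only, on the peak of Mir195a) was not counted. Of the 24 precursors, 8 had members in both lists, 8 were Early-B only, none was progenitor only, and 8 had no peak within 10 kb. Of the 16 with a member, 8 were thus Early-B only, against 29.8% over all annotated precursors with a member, where 11.7% were progenitor only. The 8 Early-B-only precursors were Mir199a-2 (34.3), Mir100 (21.1), Mir10b (8.26), Mir214 (5.49), Mir195a (3.22), the cartilage microRNA Mir140 (2.34), Mir199a-1 (1.95) and Mir483 (1.48). Mir100 and Mir10b are also on the stem cell list, and Mir214 shares its peaks with Mir199a-2. The 8 in both lists included Mir322, Mir351 and Mir503, which share a peak (41.5 in Early-B and 98.6 in progenitors). The others were Mir199b (16.6 and 73.9), Mir675 (5.89 and 19.0), Mir145a (7.64 and 12.2), Mir335 (3.45 and 5.74) and Mir143 (7.64 and 1.32). Each value is the highest near the precursor in its list, and the values of a precursor need not come from overlapping peaks. The 7.64 at Mir145a and Mir143 is that of the same Early-B-only peak. The progenitor 12.2 peak overlapped an Early-B peak of 5.12 and was not within 10 kb of Mir143. Among these 8, only Mir143 had the higher such value in Early-B, and these values do not measure change between lists. Mir199a-2 and Mir214, made from the non-coding transcript Dnm3os within Dnm3, had 3 Early-B peaks nearby. These were 1205 bp (34.3), 4402 bp (5.49) and 928 bp (4.70) wide, and the nearest progenitor peak to the first lay 188612 bp away. Coding genes of stromal cells (Col1a1, Col1a2, Col3a1, Pdgfra, Pdgfrb and Twist1, chosen after seeing the data) had a peak in the Early-B list at 6 of 6, with highest values from 1.25 to 8.66, and in the progenitor list at 4 of 6, with values from 1.51 to 15.5. Of these 4, Pdgfrb alone had the higher value in progenitors (6.24 in Early-B and 15.5 in progenitors). The Early-B list was also the longer, with 48054 peaks against 31414. The share of all coding genes with such a peak was not computed. The part that OP9 cells may have had in the Early-B list was not tested. The counts of Early-B-only and progenitor-only stromal precursors were 6 and 0 with q limited to 0.05, 5 and 0 with lists of equal length, and 2 and 2 with both lists limited to a −log10 p of 10 or more, a limit that removes Early-B members such as those near Mir145a (7.64) and Mir675 (5.89).

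**Figure D4:**
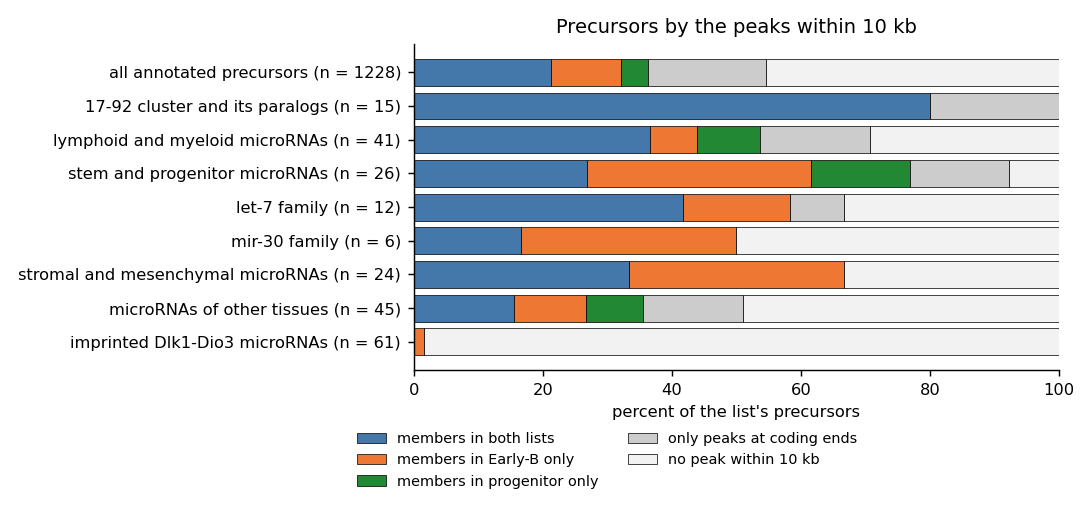
Share of each list's precursors by the peaks within 10 kb, in percent, with the number of precursors beside the name. The 17-92 cluster and its paralogs have blue and grey parts alone, the stromal list has an orange but no green part, and the imprinted list is nearly empty.

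The other lists filled in the picture. Of 12 let-7 precursors 5 had members in both lists and 2 were Early-B only (28.6% of the 7 with a member). Of 6 mir-30 precursors 1 had members in both lists and 2 were Early-B only (66.7% of the 3 with a member). The 2, Mir30b and Mir30d, rest on the same 207-bp peak (1.83) with a q above 0.05, so they do not count separately. Among 45 precursors of microRNAs known from other tissues, 7 had members in both lists, 5 were Early-B only and 4 progenitor only, while 22 had no peak within 10 kb. Of the 16 with a member, 31.25% were thus Early-B only and 25.0% progenitor only. Over all annotated precursors with a member these shares were 29.8% and 11.7%. The progenitor-only precursors Mir141 and Mir200c rest on 1 peak (1.71) that overlapped an Early-B peak at a coding end. The shared ones held Mir203 of skin (51.9 and 118), the sensory cluster of Mir183, Mir96 and Mir182 (18.8 and 62.2) and all 3 Mir9 hairpins of neural cells, of which Mir9-2 had the highest values (66.8 and 26.4). The heart microRNA Mir208b (13.8) led the Early-B-only ones and Mir124a-1 (3.66) the progenitor-only ones. Of 61 imprinted precursors of the Dlk1-Dio3 region, 60 had no peak within 10 kb in either list, and Mir1247 had a weak Early-B peak (2.03).

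Ranked over all loci, near a listed microRNA or not, the leading Early-B-only loci mostly lay within coding genes. Mir574 led with a 4809-bp peak at a listed start of Tlr6 (chr5:64957090-64961898, −log10 p 62.3), a receptor gene of innate immunity. Among those that followed were Mir1192 in Klf9 (59.4), Mir6940 in Cep170b (49.1), Mir1954 in the endoglin gene Eng (44.7), Gm51277 in Napepld (38.8), Mir199a-2, Mir684-2 (34.2), a second peak near Mir7240 in Mast3 (32.9) and Mir3569 at a listed start of Zbtb32, a transcriptional repressor of lymphocytes (30.8). Apart from Mir199a-2, the nearest progenitor peak lay between 1222 and 21967 bp from each of them. At Mir3569 that neighbour, 1222 bp away, had a −log10 p of 277, so a private peak can sit beside a strong one of the other list. The leading progenitor-only loci were weak: Mir1895 in Cxxc4 (6.90), Mir29b-1, Mir135a-1 (4.86), Mir33, a regulator of cholesterol export within Srebf2 (4.85), Mir1942 in Plec (4.57) and Mir7688 (4.20).

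The wider peak of a shared pair was more often the Early-B one. Of 240 loci with 1 peak in each list, 138 had the wider peak in Early-B (57.5%, exact interval 51.0 to 63.8), while over all 22623 such pairs 62.9% did, a share inside that interval. The median widths were 1577.5 bp in Early-B and 1364.5 bp in progenitors. Where both peaks reached a −log10 p of 10, 53 of 87 pairs were wider in Early-B (60.9%), against 66.4% of all such pairs. The largest ratios of Early-B to progenitor width were at Mir5104 in Zc3h12d (3838 and 903 bp, 4.25-fold), Mir10a in Hoxb3 (2766 and 829 bp, 3.34-fold), Mir9-2 (6379 and 2063 bp, 3.09-fold), Mir8093 in Fpgs (2.84-fold) and Mir1904 in Pde4d (2.28-fold). At the other end were Mir467h (728 and 1737 bp, 0.419-fold), the Mir183 cluster (1590 and 3702 bp, 0.430-fold), Gm23363 beside Mir199b in Dnm1 (0.438-fold), Mir1953 in Fam110a (0.588-fold) and Mir6546 in the Fc receptor gene Fcgr3 (0.621-fold). The widest member of either list lay near Mir1927 in Rabgap1l, with 15772 bp in Early-B and 14767 bp over 2 peaks in progenitors. The locus near most precursors, 7, was that of Mir322 on the X chromosome (4289 bp, 41.5 in Early-B, and 2686 bp, 98.6 in progenitors).

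**Figure D5:**
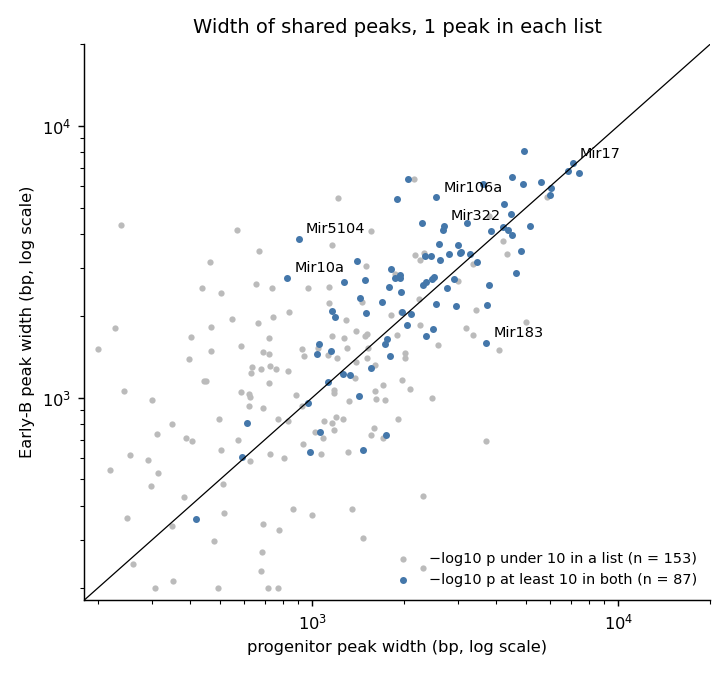
Width in bp (log scales) of the Early-B peak against the progenitor peak at the 240 shared loci with 1 peak in each list, with pairs that reach a −log10 p of 10 in each list in blue. Points above the diagonal, such as Mir10a and Mir5104, are wider in Early-B, and Mir183 lies below it.

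Promoter sequence was examined where a member covered a whole RefSeq window from 250 bases before to 50 after a listed start. The motif searched was CCCNNGGG, a palindromic core bound by EBF factors, which reads the same on both strands. It occurred in 4491 of all 32851 windows (13.7%), in 10.1% of windows of long non-coding genes and in 15.6% of those of coding genes. Within shared Early-B members it was found in 5 of 31 non-coding (16.1%) and 7 of 29 coding (24.1%) windows, and within shared progenitor members in 6 of 29 (20.7%) and 7 of 30 (23.3%). The windows belong to 26 and 24 genes in Early-B and to 25 and 24 in progenitors, and some overlap. Fcgr3 and Mest each had more than 1 matching window, and Gm32817 and Gm53058 had the same one, so the matches are not all separate. Windows in shared members were also richer in G and C, with medians of 61.0% and 61.7% in shared Early-B members against 52.7% over all windows. Of the Early-B-only members' windows, 1 of 2 non-coding and 0 of 4 coding ones held it. The 3 windows in progenitor-only members all held it and belong to 1 gene, so they share 1 match. A match in these letters is no evidence of binding.

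The windows of 4 non-coding host or neighbour genes are printed 5′ to 3′ on the gene's strand. The first shows where the listed start of a host gene falls, and the others show an instance of the motif in a shared, an Early-B-only and a progenitor-only member. The listed start of Mir17hg lies among the hairpins, and its capitals mark the mature strands of Mir20a and Mir19b-1, so the wide shared peak begins far before this start. Kis2 lies at the Mir106a cluster, Dnm3os at Mir199a-2 and D030055H07Rik at Mir135a-1, and their capitals mark the motif.
Mir17hg (chr14:115044140-115044439, plus strand): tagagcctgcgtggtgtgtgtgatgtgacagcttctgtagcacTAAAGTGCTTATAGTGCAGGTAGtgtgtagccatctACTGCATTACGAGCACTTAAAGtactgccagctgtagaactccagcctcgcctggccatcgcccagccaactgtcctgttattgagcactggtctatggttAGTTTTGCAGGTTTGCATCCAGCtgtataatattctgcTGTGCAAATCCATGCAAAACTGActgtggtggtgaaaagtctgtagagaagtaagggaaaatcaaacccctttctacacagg
Kis2 (chrX:52744544-52744843, minus strand): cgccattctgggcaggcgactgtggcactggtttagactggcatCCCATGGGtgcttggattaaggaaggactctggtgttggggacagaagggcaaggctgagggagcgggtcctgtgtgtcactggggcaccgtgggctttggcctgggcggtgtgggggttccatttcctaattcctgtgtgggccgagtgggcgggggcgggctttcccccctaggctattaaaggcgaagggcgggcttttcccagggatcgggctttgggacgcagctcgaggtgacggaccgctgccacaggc
Dnm3os (chr1:162217373-162217672, plus strand): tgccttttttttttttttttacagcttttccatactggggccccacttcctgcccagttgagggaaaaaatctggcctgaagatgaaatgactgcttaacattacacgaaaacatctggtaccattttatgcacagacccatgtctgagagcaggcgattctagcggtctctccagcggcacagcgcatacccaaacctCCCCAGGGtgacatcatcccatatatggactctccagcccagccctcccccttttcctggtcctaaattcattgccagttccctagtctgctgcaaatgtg
D030055H07Rik (chr9:106147745-106148044, plus strand): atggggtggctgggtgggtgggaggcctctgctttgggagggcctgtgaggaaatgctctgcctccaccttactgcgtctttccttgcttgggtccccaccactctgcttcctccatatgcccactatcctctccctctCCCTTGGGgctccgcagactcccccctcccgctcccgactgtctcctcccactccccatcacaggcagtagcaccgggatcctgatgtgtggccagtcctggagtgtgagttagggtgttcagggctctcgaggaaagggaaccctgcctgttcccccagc
The windows differed in composition, with 47.0% G and C in that of Mir17hg, 63.3% in Kis2, 48.7% in Dnm3os and 62.3% in D030055H07Rik.

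The thresholds of the rule cut through similar peaks. Just inside 10 kb of a precursor lay Early-B peaks near Mir34b (9944 bp, −log10 p 1.33) and Mir130c (9977 bp, 3.09), and just outside lay those near Mir671 (10096 bp, 2.44) and Mir7078 (10113 bp, 14.0). In progenitors the nearest peaks inside were at Mir3061 (9902 bp, 3.55) and Mir1955 (9966 bp, 7.66), and just outside stood a strong 187.8 peak at 10093 bp from Mir15a. At the other threshold, the Early-B peak over Mir8104 (37.2) was kept at 1014 bp from a coding end and that near Mir5103 (49.9) was left out at 894 bp.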

How the data were processed

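H3K4me3 chromatin immunoprecipitation was sequenced in Ebf1-/- progenitors and in Early-B cells, and each group had 1 deposited peak list, matched to its group by the list's name and the sample titles. The builds GRCh38 and mm10, MACS 1.4.3 and Bowtie 1.1.2 are named, with no role, per the submitters' processing notes. No source used here states the pooling of replicates, the use of the input, the settings or the read depth, so the depth behind a peak is unknown. Per the file headers, the lists hold peak length in bp, the authors' pileup signal and the authors' fold enrichment, a ratio to background. The names of the deposited −log10 p and −log10 q columns are damaged and were read from their order and values.

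Gaps between peaks, precursors and gene ends were computed from the gene table of RefSeq GRCm38.p6, the assembly of mm10, which lists 1228 precursors and 21900 coding genes without strand or exons. Strands (1072 precursors), mature strands and start windows (32851) came from RefSeq tables of that build. Shared sets from bedtools 2.31.1 were identical to those of the Python 3.11.15 code (numpy 2.4.6, pandas 2.3.3, scipy 1.17.1, matplotlib 3.10.9), which was tested on simulated data. With 1 list per group no test was made. Named were the strongest, widest and most unequal loci, ranked over the 518 loci whose peaks are all members, the locus with most precursors, the edges of the rule and members near listed microRNAs. A locus that this rule names is not reported here. The members and lists were chosen with earlier results of these data known. Alternatives in window, overlap, threshold and list length were tried.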

Additional observations from a re-analysis of the deposited data

How the results depend on the processing

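Counts of members moved with the window and the threshold. Within 5 kb of a precursor there were 232 Early-B and 181 progenitor members, and within 2 kb 102 and 93. At a −log10 p of 10 or more in both lists there were 150 and 127, at q of at most 0.05 the progenitor list kept 210, and at equal list lengths the Early-B list kept 287. The private share of Early-B members was 36.3% within 2 kb, 38.7% at a −log10 p of 10 or more and 31.7% at equal lengths. That of progenitor members was 20.0% at q of at most 0.05 and 41.2% at equal lengths. Private shares over all peaks were not computed with both lists limited by p or q. By precursor, in alternatives chosen after seeing the data, a −log10 p of 10 or more left 53 Early-B-only and 28 progenitor-only precursors, and equal lengths gave 63 and 95. At a −log10 p of 10 or more the lymphoid and myeloid list had 1 and 0, the stem and progenitor list 3 and 0, and the stromal list 2 and 2. At q of at most 0.05 the stem list had 2 progenitor-only precursors, and at equal lengths the stromal list had 5 Early-B-only ones. The cause of these shifts was not tested beyond the removal of peaks that each alternative makes. Another 36 values for such counts and shares stayed within their interval or within 1.5 times, among them those with other coding-end distances, with a stricter overlap and with peaks at listed coding starts left out (chosen after seeing the data). Of 8 shares by place, 7 stayed within their interval at q of at most 0.05.

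No paired analysis was possible because each group had 1 peak list and no test was made. Leaving out a replicate was not possible for the same reason. Read depth is unknown, so whether a private peak reflects depth, threshold or cells cannot be told apart.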
